A study of Arabidopsis thaliana with 24 samples.

Results

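Darkness without added sugar was studied in the RNA of small polysomes, that is, in mRNA recovered from the part of a sucrose density gradient where mRNA carries a small number of ribosomes. The arrays were chosen by their titles and treatment labels, and they make up 6 of the 24 arrays of the series. The dark group (D_SP) holds 3 arrays of Arabidopsis thaliana Col-0 seedlings that were kept in darkness with 150 mM sorbitol for 6 h. The light group (C_SP) holds 3 arrays of seedlings that stayed in light with the same sorbitol. All seedlings had been raised in shaken liquid culture under constant light, for 10 days by the study's methods and 7 days by the sample labels. Sorbitol balances the osmotic strength of a sucrose treatment. The dark seedlings therefore received neither light nor sucrose, and darkness was the only labelled difference between the groups. For comparison, total RNA of the same cultures (D_T and C_T) and small polysome RNA of seedlings treated with 150 mM sucrose in darkness or in light were also used, with 3 arrays in each group. Whole seedlings hold roots, shoots and every cell type between them, so fewer cells of a type and less RNA per cell cannot be told apart.

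A gene is expressed in steps, and the mRNA found on polysomes is the part being translated. Its level follows the amount of the mRNA in the cell and the share of it that ribosomes hold, which the study calls polysomal occupancy. A leaf that loses light stops fixing carbon and lives on stored starch and sugars. Plants short of carbon are known to switch on genes for the breakdown of amino acids, while light also acts as a signal of its own through phytochromes, cryptochromes and the circadian clock.

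The values are log2 levels from AGRONOMICS1 tiling arrays. The level of a gene is comparable between arrays, but not between genes. Since the arrays were normalized against each other, a change in the whole amount of polysomes cannot be seen. Medians of the 6 arrays lay between 5.93 and 6.04, and the median darkness change of all 30386 gene features was -0.01. The spread of single arrays about their group means (residual SD) was between 0.167 and 0.256, the highest in the dark array of replicate 9. The green leaf markers that were measured were well expressed, between 6.91 and 13.30 in darkness and between 6.90 and 13.45 in light. Root hair markers reached 6.68 in darkness and 7.10 in light, and markers of the root endodermis and stele reached 10.70 in darkness and 10.52 in light. Of these markers, 0 of 6, 0 of 15 and 0 of 10 changed by more than 2-fold at an adjusted p under 0.05. Only 1.38% of all features did so, and counts over so few markers therefore say little. Their median log2 changes were -0.39, -0.31 and 0.20. All 15 root hair markers were below 0, the lowest being PRP3 at -0.54 (adjusted p = 0.483). Of the green leaf markers 5 of 6 were below 0, and 7 of the 10 endodermis and stele markers were above 0. The part of these shifts in the results was not tested.

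Darkness changed the small polysome level of 418 gene features (1.38% of all 30386) by more than 2-fold at an adjusted p under 0.05, with 129 rises (0.425%) and 289 falls (0.951%). The rises were led by FLP1, a relative of a flowering promoting factor, and the falls by CYP706A6, a cytochrome P450. Most changes were moderate. Only 8 rises and 16 falls exceeded 4-fold, and the median log2 change was 1.2 for the rises and -1.26 for the falls. The values of dark and light arrays did not overlap for any of the 129 rises, nor for the falls other than ELF4, while 30.2% of all features were free of overlap. The calls were chosen on these same arrays, which favours such separation, so nothing is read from it. Without the fold requirement, 3385 features (11.1%) passed, and here rises outnumbered falls, with 2181 (7.18%) against 1204 (3.96%). With the replicate number as a block, 456 features passed both thresholds, all 418 among them, and 5285 passed the adjusted p alone. Leaving out both arrays of replicate 8 left 134 calls, of which 117 were among the 418, and leaving out the dark array of replicate 9 left 274. By the adjusted p alone, 680 features passed without replicate 7 and 211 without replicate 8. Between 1772 and 2232 passed without the dark array of replicate 8 or 9, or the light array of replicate 7 or 8.

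**Figure D1:**
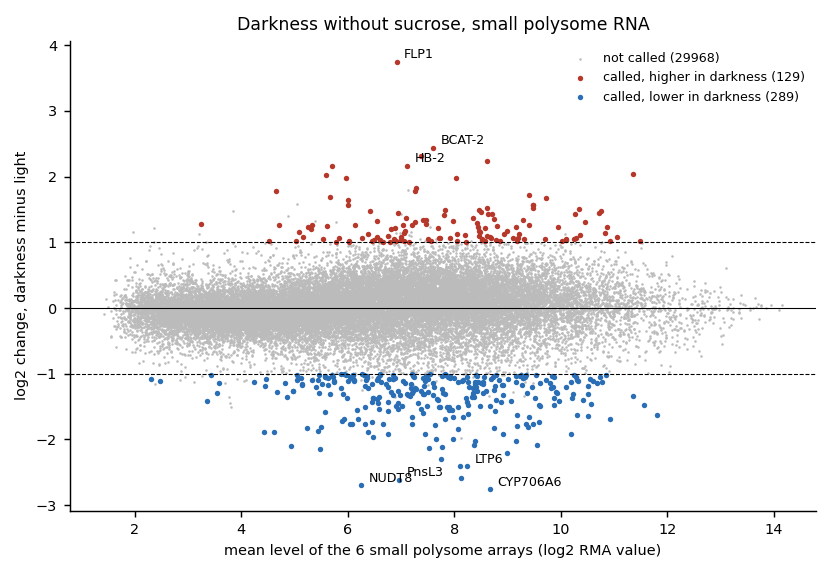
Log2 change of each of 30386 gene features (darkness minus light, vertical axis) against its mean level over the 6 small polysome arrays (log2 RMA value, horizontal axis). Red points are the 129 called rises and blue points the 289 called falls, grey points were not called, and dashed lines mark a 2-fold change. FLP1 stands highest, at 3.74.

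Single-array values are given below in the order of replicates 7, 8 and 9. FLP1 (AT4G31380, chromosome 4, 15229785 to 15230718 in the array's identifiers, whose genome build is not stated) had log2 levels of 7.59, 8.71 and 10.07 in darkness, against 4.96, 5.18 and 5.01 in light. The dark arrays spread widely and the light arrays lay close together. The log2 change was 3.74 ± 0.57 (SE, n = 3 arrays a group), a 13.4-fold rise, with an adjusted p of 3.1e-04. The call was lost in 1 of 17 other settings, without replicate 8. HB-2 (AT4G16780, chromosome 4, 9449114 to 9450743), a homeodomain leucine zipper factor of the shade avoidance response, had 7.60, 8.27 and 8.73 in darkness, against 6.08, 5.83 and 6.19 in light. All dark arrays were higher, and the log2 change was 2.17 ± 0.23 (adjusted p = 8.7e-06).

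Enzymes of amino acid breakdown were among the largest rises. BCAT-2 (AT1G10070), a transaminase that opens the breakdown of leucine, isoleucine and valine, had 8.43, 8.77 and 9.26 in darkness, against 6.63, 6.46 and 6.05 in light. The groups were far apart, with a log2 change of 2.44 ± 0.23 (adjusted p = 2.6e-06). IVD (AT3G45300, chromosome 3, 16620203 to 16625048), the isovaleryl-CoA dehydrogenase of leucine breakdown, had 8.67, 8.91 and 9.50 in darkness, against 7.06, 7.43 and 6.65 in light. THA1, a threonine aldolase, had 10.13, 10.32 and 10.35 in darkness, against 8.89, 8.82 and 7.93 in light. Neither gene overlapped between the groups, and their log2 changes were 1.98 ± 0.23 and 1.72 ± 0.20.

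The other large rises had varied roles. ACS8, an ACC synthase of ethylene synthesis, rose by 1.82 ± 0.33, and IAA29, an auxin-responsive repressor, by 1.65 ± 0.30. ST2A, a sulfotransferase of hydroxyjasmonate, and its neighbour ST2B on chromosome 5 rose by 1.78 ± 0.31 and 1.69 ± 0.27. These neighbours are related in sequence, and the array may not separate them fully. CYP89A9, a cytochrome P450 that acts on chlorophyll breakdown products, rose by 1.67 ± 0.23. ALDH7B4, an aldehyde dehydrogenase of stress responses, had 10.02, 10.23 and 10.56 in darkness, against 8.88, 8.81 and 8.41 in light, a rise of 1.57 ± 0.16. In these 6 genes every dark array was above every light array.

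Among the largest falls, CYP706A6 (AT4G12320, chromosome 4, 7314778 to 7316669) had 7.39, 7.33 and 7.14 in darkness, against 9.90, 10.001 and 10.23 in light. Both groups were tight, and the log2 change was -2.76 ± 0.21 (adjusted p = 5.6e-07), a 6.76-fold fall. NUDT8 (AT5G47240), a nudix hydrolase, had 4.88, 5.15 and 4.69 in darkness, against 7.72, 7.66 and 7.44 in light, a change of -2.70 ± 0.23. ATSPS4F, a sucrose phosphate synthase and so an enzyme of sucrose synthesis, had 8.11, 8.03 and 7.55 in darkness, against 9.73, 10.42 and 10.15 in light, a change of -2.20 ± 0.24. The dark arrays of all 3 genes lay far below the light arrays.

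FBA5, a fructose bisphosphate aldolase, had 6.72, 7.22 and 6.2 in darkness, against 8.76, 9.08 and 8.65 in light, a change of -2.11 ± 0.34. LTP6, a lipid transfer protein, had 6.67, 7.43 and 7.03 in darkness, against 9.65, 9.82 and 8.89 in light, a change of -2.41 ± 0.35. ATH1, a homeodomain factor of the shoot apex, had 7.28, 7.21 and 6.47 in darkness, against 8.97, 9.0 and 8.98 in light. Its light arrays were nearly identical, and the change was -2.0 ± 0.23. PCB2, the divinyl reductase of chlorophyll synthesis, had 7.99, 7.75 and 6.38 in darkness, against 9.57, 9.69 and 8.93 in light. The nicotianamine synthase NAS1 had 7.72, 8.05 and 6.21 in darkness, against 9.61, 9.90 and 8.71 in light. In both genes replicate 9 was the lowest array of its group, in darkness and in light. Their log2 changes were -2.02 ± 0.48 (adjusted p = 0.0088) and -2.08 ± 0.57 (adjusted p = 0.022), and the calls were lost in 3 and 6 of 18 other settings. Both were lost without replicate 7, without replicate 8 and without the dark array of replicate 9, and NAS1 also in the fit of the 6 arrays and without the light array of replicate 7 or 8. CLH1, a chlorophyllase, fell by 1.99 ± 0.39.

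**Figure D2:**
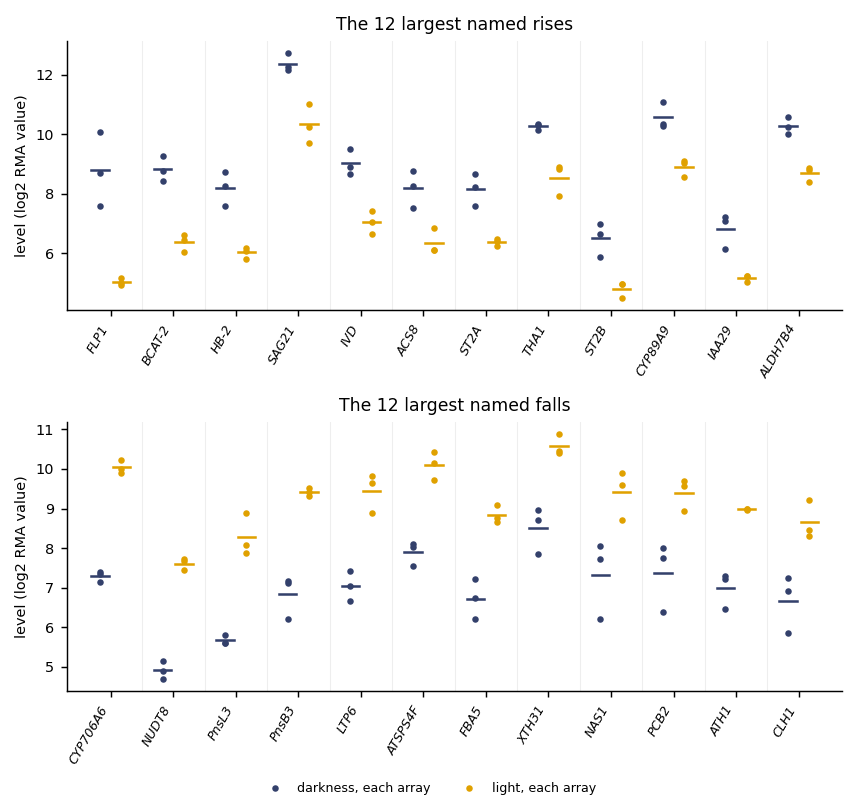
Log2 level (vertical axis) of the 12 largest rises and 12 largest falls among called features with 1 locus and a gene symbol. Points are single arrays, dark blue for darkness on the left and yellow for light on the right of each gene, and bars are means of 3 arrays. The groups of each gene are free of overlap, which the choice of these genes favours. The dark arrays of FLP1 spread most, between 7.59 and 10.07.

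The list of energy starvation markers was the one with the most rises. Like the lists below, it was chosen with earlier results of these data known. The shares of lists beside those of all features are therefore a description and no test. Of the 23 measured starvation markers, 7 rose (30.4%, against 0.425% of all features), 0 fell and 16 were not called. Without the fold requirement 10 rose and 0 fell, and the median log2 change was 0.53 in place of -0.01 over all features. In total RNA the median of the list was 0.54. The study, by contrast, found no significant change of sucrose or hexoses in its dark control and reported no induced starvation genes. It did find significantly more isoleucine and less fumaric acid there. Among its genes raised by darkness in total RNA, terms for the response to sugar were enriched. The study concluded that this treatment did not starve the seedlings of carbon. The cause of the rises was not tested here. BCAT-2, IVD, MCCA and MCCB act in the breakdown of branched-chain amino acids, the last pair as subunits of methylcrotonyl-CoA carboxylase. MCCA had 10.94, 11.07 and 10.94 in darkness, against 9.77, 9.87 and 9.02 in light, a rise of 1.43 ± 0.21. MCCB had 9.43, 9.69 and 9.39 in darkness, against 8.53, 8.55 and 8.04 in light, a rise of 1.13 ± 0.15. The groups of both subunits were apart, and the light array of replicate 9 was the lowest.

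SAG21, a senescence-associated protein of mitochondria, had 12.14, 12.24 and 12.73 in darkness, against 10.25, 9.72 and 11.02 in light, a rise of 2.04 ± 0.32. DIN2, a beta-glucosidase named for its induction in darkness, had 7.94, 7.98 and 8.50 in darkness, against 6.84, 6.93 and 6.64 in light, a rise of 1.34 ± 0.21. EXL2, an EXORDIUM-like protein, rose by 1.08 ± 0.33 (adjusted p = 0.041). DIN4, AKINBETA1 and ETFQO passed the adjusted p at changes of 0.96, 0.87 and 0.44, below 2-fold. DIN4 is a subunit of the branched-chain keto acid dehydrogenase, AKINBETA1 a subunit of the energy sensor kinase SnRK1, and ETFQO passes electrons from branched-chain amino acids to the respiratory chain.

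ASN1, the dark-inducible asparagine synthetase that is the best known of these markers, had 11.41, 11.50 and 10.93 in darkness, against 10.54, 10.85 and 9.43 in light. Its change was 1.01 ± 0.33 and its adjusted p 0.055, above the threshold. The trehalose phosphate synthase genes TPS8, TPS9 and TPS11 had changes of 0.48, 0.49 and 0.14 (adjusted p = 0.416, 0.381 and 0.876), and DIN10 0.39 (adjusted p = 0.552). SEN1 (AT4G35770), a senescence gene of darkness, was left out of the list because a pair of loci carries its name. It was called all the same, with 11.37, 11.47 and 11.63 in darkness, against 10.39, 10.54 and 9.83 in light. The name TPS10 also matched no single locus, and its values are not given here. Without replicate 8, the number of called starvation markers was 4, and it was between 5 and 8 in the other leave-one-out fits.

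The chloroplast NDH complex had the largest share of falls of all lists. The complex carries electrons around photosystem I, and most of its subunits and all of its assembly factors are coded in the nucleus. Of the 22 nuclear genes measured, 8 fell (36.4%, against 0.951% of all features), 0 rose, and the median log2 change was -0.71. The 8 were PnsL3, PnsB3, NdhT, CRR7, NdhN, PnsL4, PnsL2 and PnsB1. PnsL3 (AT3G01440, chromosome 3, 168435 to 169618) had 5.6, 5.6 and 5.79 in darkness, against 8.08, 7.87 and 8.88 in light. Its dark arrays were tight and far below the light arrays, and the change was -2.61 ± 0.31 (adjusted p = 2.9e-05). PnsB3 (AT3G16250, chromosome 3, 5506931 to 5508414) had 7.12, 7.16 and 6.2 in darkness, against 9.32, 9.41 and 9.53 in light, a change of -2.59 ± 0.25. NdhT (AT4G09350) had 6.73, 6.61 and 6.47 in darkness, against 7.86, 8.42 and 8.13 in light, a change of -1.53 ± 0.17.

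Called and uncalled genes were found in each part of the complex. In the subcomplexes particular to chloroplasts, PnsL2, PnsL3 and PnsL4 of the lumen side fell, while PnsL1 had a change of -0.64 (adjusted p = 0.235) and PnsL5, spelled Pnsl5 in the reference table, one of -0.12 (adjusted p = 0.712). PnsB1 and PnsB3 fell, while PnsB2, PnsB4 and PnsB5 had changes of -1.14, -0.36 and -0.70, with adjusted p-values of 0.0785, 0.419 and 0.217. NdhT and NdhN fell by 1.53 and 1.41. The dark and light arrays of NdhL, NdhO and NdhS overlapped, with changes of -0.08, -0.27 and -0.02. CRR7, a factor needed to build the complex, fell by 1.45 ± 0.26, while CRR6, another such factor, had a change of 0.33 (adjusted p = 0.345). In 21 of the 22 genes the change was below 0, so the uncalled members mostly had the same direction, and no test compared the parts of the complex. Without replicate 8, 4 members were called, and between 6 and 8 in the other leave-one-out fits.

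**Figure D3:**
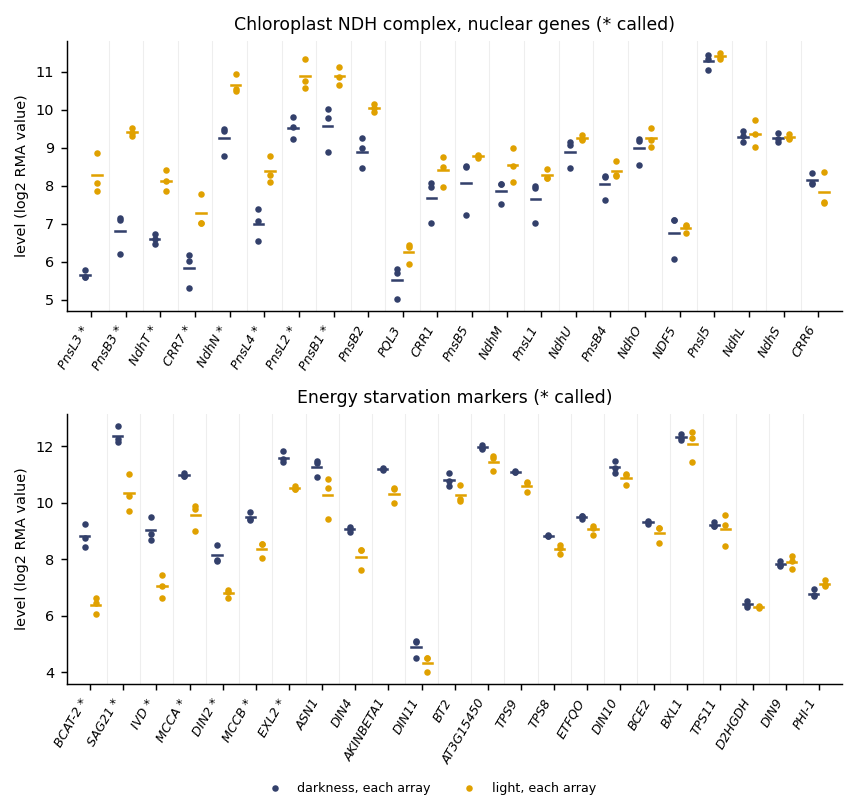
Log2 level (vertical axis) of the 22 measured nuclear genes of the chloroplast NDH complex and of the 23 energy starvation markers, ordered by their change. Points are single arrays, dark blue for darkness on the left and yellow for light on the right of each gene, bars are means of 3 arrays, and stars mark called genes. In the NDH complex 8 genes fell, and among the starvation markers 7 rose.

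Other parts of photosynthesis gave fewer calls on small polysomes. The median log2 change was -0.42 in the Calvin cycle and -0.30 in chlorophyll synthesis, against -0.01 over all features. Below 0 were 17 of 20 and 16 of 23 of these genes. Of 23 nuclear photosystem subunits, 0 were called and 0 passed the adjusted p, against 1.38% and 11.1% of all features, and the median was -0.16. The largest of these changes were NPQ4, the PsbS protein of energy dissipation, at -0.50 (adjusted p = 0.115), and PSBO2 of the oxygen-evolving complex at -0.50 (adjusted p = 0.403). Of 21 light harvesting antenna genes, 2 fell (9.52%, against 0.951% of all features) and the median was -0.16. Lhca6, which links the NDH complex to photosystem I, had 9.83, 9.69 and 8.34 in darkness, against 10.40, 10.63 and 10.70 in light, a fall of 1.29 ± 0.40. Its dark array of replicate 9 was far below the others, and without it the adjusted p was 0.269, against 0.042 with all arrays. The call was lost in 9 of 18 other settings.

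The antenna gene LHB1B1 had 9.38, 9.27 and 9.40 in darkness, against 10.72, 10.46 and 10.01 in light, a fall of 1.05 ± 0.28. Antenna genes are close copies of each other, so the share of each in a signal is uncertain. In the antenna list 0 genes were called without replicate 7, without replicate 8, without the dark array of replicate 9, or without the light array of replicate 7 or 8. LHCB3 had a change of -0.99 (adjusted p = 0.044), just short of 2-fold. In the Calvin cycle, 1 of 20 genes fell (5.0%, against 0.951% of all features), HCEF1, the chloroplast fructose bisphosphatase. Its change of -1.06 ± 0.30 (adjusted p = 0.028) lost its call in 8 of 18 other settings. The Rubisco small subunits RBCS1B, RBCS2B and RBCS3B, also near copies, had changes of -1.25, -1.11 and -0.84 that did not pass (adjusted p = 0.083, 0.096 and 0.072). In chlorophyll synthesis 1 of 23 fell (4.35%), POR C, a light-dependent protochlorophyllide oxidoreductase. It had 8.07, 7.83 and 6.66 in darkness, against 8.93, 9.19 and 8.85 in light, a fall of 1.47 ± 0.40 that lost its call in 6 of 18 other settings.

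Sigma factors guide the plastid RNA polymerase to its promoters. Of 21 sigma factors and polymerase-associated proteins, SIG4 fell (4.76%, against 0.951% of all features) and 20 were not called. SIG4 had 6.55, 6.67 and 6.48 in darkness, against 7.53, 7.69 and 8.15 in light. Without the fold requirement 5 passed, all of them falls: SIG4, SIG2, PTAC5, PTAC12 and PTAC2, with changes between -1.22 and -0.55. Of the 84 features of the chloroplast genome 0 were called, 4 passed the adjusted p as falls, and the median was -0.04. The largest of these were the transfer RNA gene trnC at -0.72 (adjusted p = 0.013) and trnK at -0.55 (adjusted p = 0.038). Of 36 features of the mitochondrial genome 0 were called, and the median was 0.07.

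Genes of starch metabolism fell on both sides of the pathway. Of 17 genes of starch breakdown 4 fell (23.5%, against 0.951% of all features) and 0 rose. Without the fold requirement 7 fell, against 3.96% of all features, with a median log2 change of -0.53. PHS2, the cytosolic glucan phosphorylase, had 8.34, 8.66 and 8.70 in darkness, against 10.20, 9.94 and 10.56 in light, a fall of 1.66 ± 0.17 (adjusted p = 7.2e-06). DPE2, which handles maltose in the cytosol, fell by 1.18 ± 0.19, the alpha-amylase AMY3 by 1.16 ± 0.15 and the beta-amylase BAM6 by 1.12 ± 0.21. The dark arrays of BAM6, at 3.44 to 3.88, lay below the lower quartile of each of the 6 arrays (4.06 to 4.25). The glucan water dikinase SEX1, the phosphatase SEX4 and the debranching enzyme LDA passed the adjusted p at -0.73, -0.56 and -0.69. One member passed in the other direction, BAM4 at 0.52 (adjusted p = 0.019), a beta-amylase relative without catalytic activity. PHS1 (AT3G29320), the plastid glucan phosphorylase, was left out of the list because more than 1 locus carries its name, and it fell by 1.49 ± 0.14. The names PWD, BAM1 and BAM2 also matched no single locus, and their values are not given here. Without replicate 8, 2 of the 4 falls in starch breakdown were called.

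Of 14 genes of starch synthesis 2 fell (14.3%) and 7 passed the adjusted p, all as falls (50.0%, against 3.96% of all features), with a median of -0.62. SS4, a starch synthase that starts granules, had 8.29, 8.44 and 8.18 in darkness, against 9.39, 9.47 and 9.58 in light, a fall of 1.18 ± 0.11. DBE1, an isoamylase subunit, fell by 1.35 ± 0.32. Branching enzyme SBE2.1, plastid phosphoglucomutase PGM and the ADP-glucose pyrophosphorylase subunits ADG1 and APL2 had changes between -0.76 and -0.60. GBSS1, the granule-bound starch synthase, had a change of 0.22 (adjusted p = 0.85). Of the 2 falls, 1 was called without replicate 7, without replicate 8 or without the dark array of replicate 9. Among 48 sugar transporters only PPT2, a phosphoenolpyruvate carrier of plastids, was called (2.08% of the list fell, against 0.951% of all features). Its fall was 1.5 ± 0.47 (adjusted p = 0.045). That call was lost in 8 of 18 other settings, among them the fits of the 6 arrays and of the 12 polysomal arrays.

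Of 28 clock genes 5 fell (17.9%, against 0.951% of all features) and 0 rose by more than 2-fold. Without the fold requirement 5 rose and 5 fell, against 7.18% and 3.96% of all features. The plant clock is a set of regulators, many of them repressors, that act on each other through the day. LHY and CCA1 act at dawn, and GI, FKF1 and the PRR proteins later. GI (AT1G22770, chromosome 1, 8061844 to 8067716) had 6.79, 7.46 and 7.19 in darkness, against 9.09, 9.13 and 8.76 in light. The groups were well apart, and the change was -1.85 ± 0.22 (adjusted p = 3.1e-05). PRR9 had 5.74, 6.05 and 5.51 in darkness, against 8.0, 7.76 and 6.85 in light, a change of -1.77 ± 0.33. FKF1, a blue light receptor of flowering time, fell by 1.09 ± 0.21, and PRR7 by 1.08 ± 0.34 (adjusted p = 0.042). ELF4, a member of the evening complex, had 6.33, 6.56 and 7.92 in darkness, against 8.14, 7.80 and 8.84 in light. Its dark array of replicate 9 was above the light array of replicate 8, and this fall of 1.32 ± 0.40 was the only call with overlapping groups. It was lost in 8 of 18 other settings.

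The 5 clock genes that passed upwards were LHY, CDF2, RVE1, RVE8 and LKP2, at changes between 0.40 and 0.99. LHY had 12.32, 12.15 and 11.62 in darkness, against 10.95, 11.29 and 10.87 in light, a change of 0.99 ± 0.31 (adjusted p = 0.043), while CCA1 had 0.59 (adjusted p = 0.33) and TOC1 0.02 (adjusted p = 0.976). The median of the list was 0.09. The clock calls leaned on single replicates, as 1 fall was called without replicate 7, 2 without replicate 8, 2 without the dark array of replicate 7, and 3 without the dark array of replicate 8 or the light array of replicate 7.

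**Figure D4:**
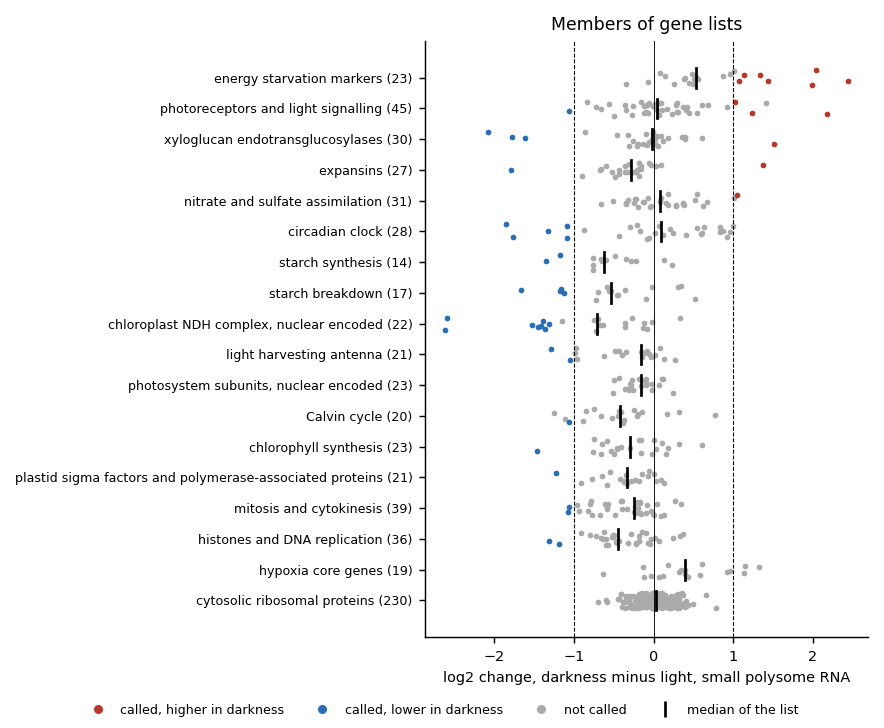
Log2 change on small polysomes (darkness minus light, horizontal axis) of each measured member of 18 gene lists, with the number of members in brackets. Red points are called rises, blue points called falls, grey points were not called, black strokes are medians and dashed lines mark 2-fold. The medians of the starvation markers (0.53) and of the NDH complex (-0.71) lie furthest to the right and left.

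Of 45 genes of light reception and signalling 3 rose and 1 fell (8.89% called, against 1.38% of all features), with a median of 0.04. Besides HB-2, the rises were FHL, a carrier of phytochrome A into the nucleus, and HFR1, a partner that holds back phytochrome interacting factors. FHL had 5.35, 6.06 and 6.18 in darkness, against 4.23, 4.45 and 5.23 in light. Its call was lost in 3 of 17 other settings, among them the fit of the 6 arrays. HFR1 had 7.43, 7.40 and 7.40 in darkness, against 6.16, 6.42 and 6.6 in light, a rise of 1.01 ± 0.13 that stayed under 2-fold when arrays were centred on their medians or normalized by quantiles. The HFR1 call was also lost without replicate 7 and without the light array of replicate 7. PIF7, a phytochrome interacting factor of shade growth, had 9.08, 8.78 and 8.41 in darkness, against 9.91, 10.05 and 9.49 in light, a fall of 1.06 ± 0.23. This fall lost its call in 4 of 18 other settings. PIL2 passed the adjusted p at 0.92, and LZF1, a zinc finger factor of light responses, at -0.84.

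Enzymes and proteins that loosen or remodel the cell wall went both ways. Of 30 xyloglucan endotransglucosylase genes XTH24 rose and XTH31, XTH7 and XTH32 fell (13.3% called, against 1.38% of all features). XTH24 had 10.95, 10.93 and 11.44 in darkness, against 9.73, 9.55 and 9.52 in light, a rise of 1.51 ± 0.24. XTH31 had 8.97, 8.70 and 7.85 in darkness, against 10.41, 10.46 and 10.89 in light, a fall of 2.08 ± 0.36. The falls of XTH7 and XTH32 were 1.77 ± 0.41 and 1.62 ± 0.44, and 0 of the 4 genes were called without replicate 8. Without replicate 7, or without the dark array of replicate 9, 1 fall was called. Of 27 expansins, EXPA16 rose and EXPB3 fell (7.41% called). EXPA16 had 9.62, 9.51 and 7.97 in darkness, against 7.63, 7.53 and 7.83 in light, so that its replicate 9 differed by little. The EXPA16 call was lost in 4 of 18 other settings, among them the fit of the 6 arrays, and that of EXPB3 in 2 of 18. EXPB3 had 7.13, 6.68 and 6.4 in darkness, against 8.69, 8.90 and 7.97 in light.

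Of 39 genes of mitosis and cytokinesis 2 fell (5.13%, against 0.951% of all features) and 0 rose. Without the fold requirement 10 fell (25.6%, against 3.96% of all features) and 0 rose, with a median of -0.25. BUBR1, a spindle checkpoint kinase relative, had 5.24, 5.04 and 5.01 in darkness, against 6.24, 6.27 and 6.0 in light, and CDC20.2, an activator of the anaphase-promoting complex, had 6.09, 6.23 and 5.80 in darkness, against 7.32, 7.29 and 6.71 in light. Both fell by 1.07, and CDC20.2 lost its call in 5 of 18 other settings. Of 36 genes of histones and DNA replication 2 fell (5.56%), and 7 passed the adjusted p as falls (19.4%), with a median of -0.45. PCNA1, the sliding clamp of DNA polymerase, had 7.61, 7.55 and 6.37 in darkness, against 9.02, 8.70 and 7.74 in light, with replicate 9 lowest in both groups. PRL, a subunit of the MCM helicase, fell by 1.19 ± 0.33. PCNA1 and PRL lost their calls in 7 and 6 of 18 other settings, both of them in the fit of the 6 arrays alone.

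Several pathways gave few or no calls, where 1.38% of all features were called. Among 26 flavonoid genes 0 were called, CHIL, a chalcone isomerase-like protein, had a change of -0.98 (adjusted p = 0.034), and the hydroxylase gene F3H one of -0.69 (adjusted p = 0.592). Among 33 glucosinolate genes 0 were called, and the largest changes were CYP83A1 at -0.80 and MYB29 at -0.76 (adjusted p = 0.528 and 0.218). Of 31 genes of nitrate and sulfate assimilation 1 rose (3.23%, against 0.425% of all features), UPM1, which makes the precursor of siroheme. It had 10.55, 10.54 and 10.76 in darkness, against 9.40, 9.41 and 9.89 in light. That call was lost in 5 of 18 other settings. The nitrate reductase NIA2 and the sulfite reductase SIR passed the adjusted p at 0.62 and 0.52. Of 19 hypoxia core genes 0 were called and 2 passed the adjusted p, MGL at 0.92 and ERF73 at 0.96, with a median of 0.39. The cysteine oxidase gene AT5G15120 had 5.19, 5.62 and 8.51 in darkness, against 5.05, 5.33 and 4.99 in light, so that only the dark array of replicate 9 stood out.

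The 230 cytosolic ribosomal protein genes stayed close to 0 without sugar. Of these 0 were called, 4 rose and 1 fell at the adjusted p alone, and the median log2 change was 0.03. The largest changes were AT3G02190, a gene of the large subunit, at 0.78 (adjusted p = 0.0038) and RPL3B at -0.69 (adjusted p = 0.0059). With sucrose, the median darkness change of the same genes was -0.58, and for 89 of the 230 the darkness changes without and with sucrose differed at an adjusted p under 0.05, against 11.5% of all features.

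Whether the polysomal changes followed the total amount of mRNA was asked with the total RNA arrays of the same cultures. In total RNA, darkness changed 452 features (1.49%), and 70 of the polysomal rises (54.3%, and 50.7% of the 138 rises in total RNA) and 211 of the polysomal falls (73.0%, and 67.2% of 314) were called there in the same direction. The median total RNA change was 1.07 for the 129 rises and -1.23 for the 289 falls. The samples share cultures, though no array, and polysomal and total RNA arrays of the same replicate deviated together, with correlations of 0.273 to 0.598 in darkness and 0.211 to 0.449 in light. The part of the shared cultures in these counts was not tested. A change in polysomal occupancy, the polysomal change minus the total RNA change, passed an adjusted p under 0.05 for 0 features with limma (0%). Of all 30386, 1276 had an unadjusted p under 0.05, a smaller share than the 0.05 that no change at all would give. The smallest adjusted p was 0.151, and 10 features passed when the culture was taken as a random block. Among the 418, 17 had an unadjusted p under 0.05, also a share below 0.05. The main fit took polysomal and total RNA of a culture as independent, while the random block put their correlation at 0.417. Leaving out such a correlation makes the p-values of this difference too large. The low shares therefore do not show that occupancy was unchanged.

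The values of single genes show how close both kinds of RNA lay. GI changed by -1.85 on small polysomes and by -1.92 in total RNA, PnsL3 by -2.61 and -2.67, and BCAT-2 by 2.44 and 2.1. FLP1 changed by 3.74 and 2.81 (unadjusted limma p of the difference = 0.258). LHB1B1, by contrast, fell by 1.05 on small polysomes and changed by 0.08 in total RNA (adjusted p = 0.911), with an unadjusted occupancy p of 0.0091 that did not pass the adjustment. LTP6 changed by -2.41 and -1.54 (unadjusted limma p of the difference = 0.0925).

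**Figure D5:**
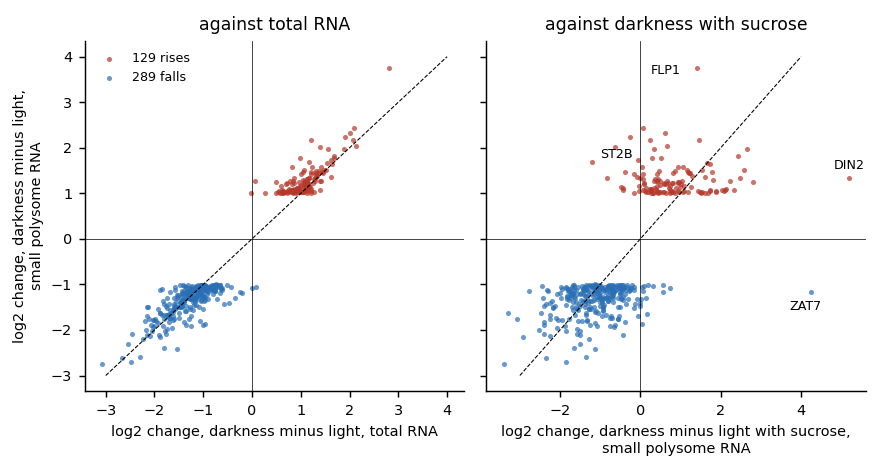
Log2 change on small polysomes without sugar (darkness minus light, vertical axis) of the 129 rises (red) and 289 falls (blue), against the same change in total RNA (left) and the change on small polysomes with sucrose (right). The dashed line marks equal changes. On the left the points follow the line, and on the right DIN2 and ZAT7 stand far from it, at 5.18 and 4.24 with sucrose.

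Whether sucrose changed the effect of darkness was asked by subtracting the darkness change with sucrose from that without sugar, over arrays that the comparisons do not share. The difference passed an adjusted p under 0.05 for 3507 features (11.5%), or 5397 with the replicate number as a block. With sucrose, darkness changed 2573 features (8.47%) by more than 2-fold. Of the rises without sugar, 42 were also called with sucrose (32.6%, and 2.76% of the 1524 rises there), and of the falls 161 (55.7%, and 15.3% of 1049). The medians with sucrose were 0.67 for the 129 rises and -1.11 for the 289 falls. The difference itself passed for 76 of the 418, namely 37 rises and 39 falls. With sucrose the change was less positive, or negative, for 30 of these rises. It was less negative, or positive, for 27 of these falls. Both counts thus include changes of opposite sign, such as those of ST2B and ZAT7. Since the 418 were chosen for a large change without sugar, a smaller change with sucrose is favoured by the choice, and nothing is read from these directions or medians. Leaving out replicate 8 or 7 left 450 or 483 differences over all features.

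Among the rises that differed were 4 genes of branched-chain amino acid breakdown. BCAT-2 changed by 2.44 without sugar and 0.06 with sucrose (difference 2.38, adjusted p = 7.2e-05), IVD by 1.98 and 0.34 (difference 1.64), MCCA by 1.43 and 0.40 (difference 1.03) and MCCB by 1.13 and -0.47 (difference 1.60). The threonine aldolase gene THA1 changed by 1.72 and -0.05. Not every starvation marker went this way, since DIN2 changed by 1.34 without sugar and 5.18 with sucrose. With sucrose, BCAT-2 had mean levels of 4.62 in darkness and 4.56 in light, against 6.38 in light without sugar. IVD had 5.47 and 5.12, against 7.05, and MCCA had 6.29 and 5.89, against 9.55. These 3 genes were thus already low with sucrose in light, and the part of their low levels in the differences was not tested. ST2B had opposite signs, with 1.69 without sugar and -1.19 with sucrose. The zinc finger gene ZAT7 (AT3G46090) had 4.89, 4.24 and 4.53 in darkness, against 5.57, 5.35 and 6.22 in light without sugar, a fall of 1.16 ± 0.29 that lost its call in 5 of 18 other settings. With sucrose it changed by 4.24. Among the falls, FBA5 changed by -2.11 without sugar and -0.44 with sucrose, and PnsB3 by -2.59 and -1.35. HB-2, XTH24, PnsL3 and CYP706A6 changed alike in sign and did not pass the test of the difference (adjusted p = 0.178, 0.985, 0.799 and 0.183).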

How the data were processed

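RNA of 4 treatments was hybridized to AGRONOMICS1 arrays, 3 total RNA and 3 small polysome arrays each. The log2 values were deposited by the authors after RMA, in which probes are corrected for background, normalized across arrays and combined per gene. Arrays of the non-polysomal fraction were not part of that step. The submitters' processing notes name limma, and the sources used here give no genome build and no version of RMA or limma. The values were not transformed again. After 371 array control rows were left out, 30386 gene features remained, without a filter on low values. Of their loci, 98.1% were named through RefSeq's gene table. No sequence was at hand, so the planned search of promoters for motifs was not run and none is shown.

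Tests were run with limma 3.58.1 (R 4.3.3), and figures were drawn with matplotlib 3.10.9 (Python 3.11.15). All 24 arrays entered 1 linear model that has a mean for each of 8 groups. Variances were moderated by limma, which estimated 3.57 prior degrees of freedom, and p-values were adjusted by Benjamini-Hochberg over all features. A called change is larger than 2-fold and has an adjusted p below 0.05. For differences between changes the adjusted p alone was used. Deviations of dark and light small polysome arrays with the same replicate number correlated at 0.137, 0.151 and 0.366, so the numbers were taken to pair the samples, and the fit with the replicate number as a block is given where it moves a count. The dark array of replicate 7 also correlated at 0.402 with the light array of replicate 8. The study calls the replicates biological. The number of arrays limits the precision.

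The genes named are the 12 largest rises and 12 largest falls with 1 locus, a symbol and the same direction in all 3 pairs, up to 4 called members of each list in each direction, or the 2 largest changes where a list had none, and the 3 largest differences between darkness without and with sucrose. Others were added after the values were seen, either as members of these lists or as marked. Groups, lists and tests were chosen with earlier results of these data known. Of 1031 list names, 53 matched no locus or several, and 7 that have another meaning were left out. Alternatives were the block, other sets of arrays, a random block for the culture, an intensity trend, filters on low means, other normalizations, other folds, and leaving out arrays.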

Additional observations from a re-analysis of the deposited data

Results flagged for a closer look

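The darkness change on small polysomes without sugar differed from that with sucrose, by limma's test of the difference, for 3507 gene features, and 76 of these were among the 418 called changes. Of the genes named in the report, the difference (without sugar minus with sucrose, log2) was -5.40 for ZAT7, -3.85 for DIN2, -1.68 for FBA5 and -1.24 for PnsB3. It was 0.78 for UPM1, 1.03 for MCCA, 1.64 for IVD, 1.77 for THA1, 2.38 for BCAT-2 and 2.89 for ST2B. The endodermis marker CASP5 also differed, by 0.91, with a change of 0.35 without sugar (adjusted p = 0.148) and -0.56 with sucrose (adjusted p = 0.0063).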

How the results depend on the processing

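The 418 calls were 456 with the replicate block, which kept all 418, and between 134 (without replicate 8) and 587 (without the dark array of replicate 7) in leave-one-out fits. Rises then lay between 32 and 216, falls between 102 and 371, changes by adjusted p alone between 211 and 4147, and differences between darkness without and with sucrose between 450 and 4620. At more than 1.5-fold 1804 features passed (957 rises, 847 falls), and at more than 3-fold 76 (17 rises, 59 falls). By adjusted p alone 5285 passed with the block and 1506 in the fit of the 6 arrays. For the difference the block gave 5397, and for occupancy the culture as a random block gave 10 in place of 0. The remaining settings, which left out no array, kept these counts within 1.5 times, with quantile normalization giving 100 rises and 318 falls, and the cause of these shifts was not tested. The block changed no call of the 58 called genes among those named by the rule. Of these, 22 kept their call without replicate 8, 31 without replicate 7, 53 without replicate 9 and 43 without the dark array of replicate 9. The only change of sign was the uncalled mitochondrial ATMG00910, which lay between -0.867 and 0.053 in leave-one-out fits, above 0 only without the light array of replicate 7. Calls lost without a whole replicate rest on 2 arrays a group, which limits those fits.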

Other observations

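Gene families of auxin and jasmonate were looked at after their members had been seen among the calls, so their counts are a description. Over all features 0.425% rose and 0.951% fell, but families picked for their calls cannot be compared with these shares. Of 11 YUCCA genes, which make auxin, YUC5, YUC8 and YUC9 rose and 0 fell. YUC9 had 6.09, 7.46 and 6.75 in darkness, against 5.55, 5.44 and 5.51 in light, and YUC8 had 7.29, 7.87 and 7.81 in darkness, against 6.39, 6.59 and 6.47 in light. Every dark array of both genes was above every light array. YUC5 had 7.03, 7.27 and 8.18 in darkness, against 6.29, 5.76 and 6.78 in light (limma adjusted p = 0.021). Of 24 Aux/IAA repressors IAA2 and IAA29 rose and 0 fell. Of 9 GH3 enzymes, which couple hormones to amino acids, WES1 and GH3.3 rose and DFL2 fell, with changes of 1.47, 1.08 and -1.15. Of 12 measured genes with a numbered SAUR symbol 0 were called. They were taken by the symbol alone, so membership in the family was not checked. The family medians were 0.02 for YUCCA, 0.05 for Aux/IAA, -0.07 for GH3 and 0.13 for SAUR. Single members lay on both sides of 0, between -1.15 and 1.47 for GH3.

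Of 14 genes of jasmonate synthesis AOC2, LOX2, KAT5 and AOS fell and 0 rose, with a median of -0.42. By the adjusted p alone 5 fell and 1 rose. The lipoxygenase LOX2 had 9.28, 9.64 and 10.12 in darkness, against 11.11, 10.75 and 12.12 in light, a change of -1.65 without sugar and 0.16 with sucrose. The allene oxide synthase AOS had 8.73, 8.80 and 8.76 in darkness, against 9.64, 9.70 and 10.12 in light. AOC2, an allene oxide cyclase with near copies, had 8.06, 8.21 and 7.59 in darkness, against 9.73, 9.51 and 10.40 in light. Of 10 JAZ repressors 0 were called, with a median of -0.08.

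Both genes with the symbol TPX2 differed in sign. The spindle assembly factor (AT1G03780) fell by 1.0 on small polysomes and by 1.41 in total RNA. The other (AT1G65970), a peroxiredoxin with close relatives, had 5.23, 5.73 and 6.54 in darkness, against 4.4, 3.41 and 4.96 in light. Its change of 1.58 did not pass on small polysomes (adjusted p = 0.0996), and it changed by 2.77 in total RNA (adjusted p = 0.0048).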
